A study of Homo sapiens with 4 samples.

Results

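Heat shock proteins and their J-domain cochaperones fold newly made proteins and rescue damaged ones. The set described here holds the protein-coding genes of GENCODE release 29 whose symbols begin with HSPA, HSPB, HSPD, HSPE, HSPH, HSP90 or DNAJ, leaving out HSPBP1 and HSPBAP1, together with the heat shock factors HSF1 and HSF2 and the HSP70 cochaperones BAG1 and BAG3. Of 58825 gene rows in the count files, 80 were members, with 79 different symbols, since HSPA14 carries 2 gene IDs. The choice rested on names, so it also took in HSPB11, an intraflagellar transport protein now named IFT25, and the read-through genes HSPE1-MOB4, HSPB2-C11orf52 and DNAJC25-GNG10. Chaperones with other names, such as TRAP1 and HYOU1, were not members.

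RNA was sequenced from LoVo cells, a colorectal adenocarcinoma line whose MET receptor stays uncleaved and is phosphorylated without its ligand. Of the 4 libraries, 2 came from MET+ cells, labelled wild type and GFP control, and 2 from MET-KO cells, in which CRISPR/Cas9 had been aimed at MET. All cells grew at 37 °C in DMEM with fetal bovine serum, with no heat shock or drug named in the labels. The knockout cells were obtained by puromycin selection and by picking single clones, which were chosen by western blot, and whether the MET-KO libraries share a clone is not given. The labels call the libraries of a group biological replicates, and the p-values measure the spread between these libraries only.

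HSP70 chaperones bind and release unfolded stretches of protein in a cycle driven by ATP. J-domain proteins, named DNAJA, DNAJB or DNAJC, bring them substrates and start the hydrolysis, and nucleotide exchange factors such as the HSP110 and BAG proteins end it. HSP90 acts later in folding, on kinases and receptors among others, and MET itself is a known HSP90 client. Small heat shock proteins hold unfolded proteins without using ATP, while HSPD1 and HSPE1 form the folding chamber of mitochondria. In heated cells the transcription factor HSF1 switches on many of these genes through heat shock elements in their promoters.

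The libraries held 8429142 and 10286552 counts in MET+ cells and 10137583 and 10228991 in MET-KO cells. Values are given in CPM, a gene's counts scaled to a common library size with TMM factors, and a gene at 0 counts could lie at up to 3 counts, or 0.276 to 0.362 CPM. MET, the targeted gene, had 337 and 335 CPM in the MET+ and 84.3 and 88.7 CPM in the MET-KO libraries, a log2 fold change of -1.96 (SE 0.09, edgeR adjusted p = 1.49e-18). Each adjusted p is a Benjamini-Hochberg value over all genes of the quasi-likelihood fit. The groups differed beyond MET. Of 8 listed genes of the Y chromosome, 7 had counts in both MET-KO libraries and 0 had counts in a MET+ library, and apart from Y the median log2 fold change of a chromosome ran from -0.52 on chromosome 14 to 0.50 on chromosome 7. Of 8 epithelial markers 6 had at least 10 counts in every library, with sums of 80190 to 94769 counts in MET+ and 79644 to 84835 in MET-KO libraries. Single markers moved both ways, with EPCAM at 3638 and 4245 counts against 1988 and 2291, CDH1 at 1194 and 1365 against 807 and 822, VIL1 at 43 and 58 against 3 and 3 and CEACAM5 at 0 in both MET-KO libraries, while CDX2 had 525 and 648 against 1477 and 1338. Fibroblast markers summed to 16 to 18 counts in MET+ and 37 to 46 in MET-KO libraries, leukocyte markers to 11 to 19 and 7 to 12, and endothelial markers to 7 to 9 and 0 to 1. COL1A2, DCN, PTPRC, CD3E and CDH5 were at 0 in every library. In such bulk libraries fewer cells with a transcript and less of it per cell cannot be told apart. The part of these differences in the values below was not tested, and an effect of losing MET cannot be told apart from other differences between the cells compared.

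Genes of this set moved in both directions between MET+ and MET-KO cells. Enough counts for the test were present for 62 members, of which 22 were higher in MET-KO cells, 15 were lower and 25 did not pass an adjusted p of 0.05. The 37 calls are 59.7% of the tested members, against 54.1% of the 13801 genes tested in all, and in each direction the background was 27.2% higher and 26.9% lower. HSPB3 and DNAJC5G reached the count filter through the MET-KO libraries alone, so they could be tested only if they were higher there. Of the 60 members that reached it in both groups, 20 were higher, 15 lower and 25 not called. Changes of at least 2-fold were called higher for 10 members (8 without HSPB3 and DNAJC5G) and lower for 4, against a background of 14.5% and 9.81%. The median log2 fold change was 0.12 over the tested members and 0.01 over all tested genes. Without overlap between the groups, MET-KO cells were above in 29 members and below in 22, while 11 overlapped, and 75.6% of all tested genes had groups that did not overlap. These shares sit near the background, so the set as a whole is described by which of its classes moved and how far.

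The classes did not move alike. All 3 HSP90 genes and 2 of 3 HSP110 genes were higher. The genes named HSPB that were tested were all called higher, but of these HSPB11 is the transport protein and HSPB3 had at most 2 counts in a MET+ library, which leaves HSPB1. HSP70 genes split into 2 higher, 2 lower and 4 not called of 8 tested. Of 39 tested J-domain genes 9 were higher, 11 lower and 19 not called. By the compartment of the protein, 14 of 25 cytosolic members, HSPB3 among them, were higher and 4 lower, with a median log2 fold change of 0.37. In the endoplasmic reticulum (ER) 3 of 11 rose and 4 fell (median -0.19), and in mitochondria 2 of 8 rose and 4 fell (median -0.18). Of all tested genes 27.2% were higher and 26.9% lower. Relative to the chromosome medians, as described below, 11 cytosolic members were higher and 5 lower, against 25.6% and 26.1% of all tested genes. In the ER these were 3 and 6, and in mitochondria 1 and 4.

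**Figure D1:**
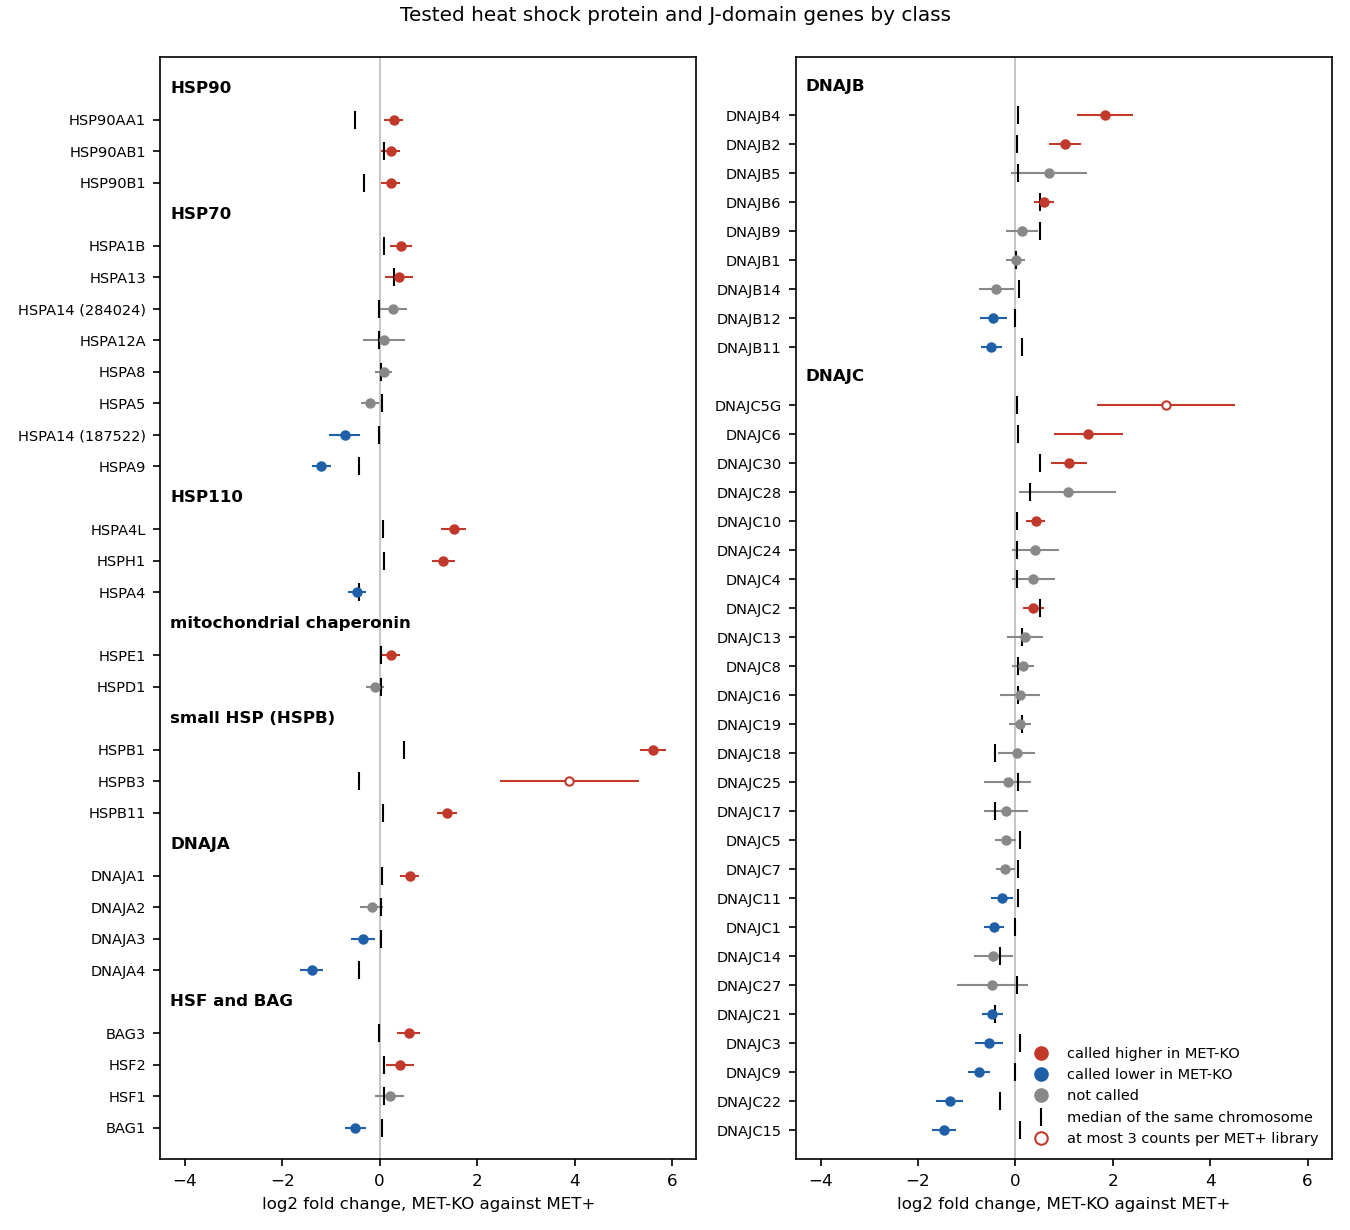
Log2 fold change of MET-KO against MET+ cells for the 62 tested members, grouped by class, with the 95% confidence interval as a bar and the median of the gene's own chromosome as a black tick. Red points were called higher, blue lower and grey not called, and open points had at most 3 counts in each MET+ library; HSPB1 stands at 5.61 while HSPA9, DNAJA4, DNAJC22 and DNAJC15 lie below -1.

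HSPB1, also known as HSP27, a small heat shock protein that binds unfolded proteins and actin filaments, showed the largest change among members. It had 8.69 and 7.38 CPM in the MET+ libraries and 417 and 366 CPM in the MET-KO libraries. Raw counts were 72 and 72 against 4264 and 3976, so the groups were far apart. The difference was 48.9-fold, a log2 fold change of 5.61 (SE 0.13, edgeR adjusted p = 2.04e-27), and it lay between 5.48 and 5.73 with any 1 library left out. By absolute log2 fold change it ranked 430 of the 13801 tested genes. HSPB1 lies on chromosome 7, 76302544 to 76304295, where the median gene was also higher, by 0.50, and it stood at percentile 98.5 of that chromosome.

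HSPB1 is a classical heat shock gene, and its promoter is shown because it belongs to the member with the largest change. The RefSeq sequence (GRCh38.p14, plus strand, chr7:76302423-76302543) begins 250 bases before the RefSeq transcription start and ends just before the start of the GENCODE gene. Capitals mark a pair of inverted heat shock element units, written GAANNTTC or TTCNNGAA, at positions -182 to -175 from the RefSeq start.
HSPB1: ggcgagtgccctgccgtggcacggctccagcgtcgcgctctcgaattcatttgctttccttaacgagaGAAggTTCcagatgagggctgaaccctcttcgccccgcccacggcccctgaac
This letter pattern was found in 31.4% of the members with a promoter sequence and in 13.4% of the tested genes with one. A single match is therefore common and says nothing of binding.

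The other genes named as small heat shock proteins had few or no counts, except HSPB11. HSPB11, the transport protein, rose from 59.4 and 59.2 CPM to 152 and 156 CPM, 2.60-fold (log2 fold change 1.38, SE 0.10, edgeR adjusted p = 7.12e-14), with hardly any spread within a group. HSPB3, known from muscle, had 2 and 1 counts in MET+ and 26 and 30 in MET-KO libraries. Its ratio of counts per library total was 17.2, with a counting interval from 5.58 to 85.7. HSPB6 had 0 and 4 counts in MET+ and 0 and 0 in MET-KO cells, and HSPB8, the partner of BAG3, had 0 and 0 against 1 and 1. HSPB9 also had 0 and 0 against 1 and 1, and HSPB2, HSPB7 and HSPB2-C11orf52 had no count. For these genes a difference was not detectable at this depth.

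The HSP110 proteins HSPH1, HSPA4L and HSPA4 release ADP from HSP70 so that its cycle can start again. HSPA4L had 19.5 and 21.3 CPM in MET+ and 56.8 and 60.7 CPM in MET-KO libraries, a 2.87-fold difference (log2 fold change 1.52, SE 0.13, edgeR adjusted p = 2.62e-12). HSPH1 had 29.6 and 28.3 CPM against 67.8 and 74.9 CPM, 2.47-fold higher (log2 fold change 1.30, SE 0.12, edgeR adjusted p = 1.81e-11). In both genes the groups were far apart. HSPA4, the third of them, went the other way, from 294 and 308 CPM to 225 and 214 CPM (log2 fold change -0.46, SE 0.09, edgeR adjusted p = 6.34e-05). It lies on chromosome 5, whose median was -0.43, and its value relative to that chromosome was -0.03 (edgeR adjusted p = 0.816).

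Among HSP70 genes, the main constitutive forms of the cytosol and the ER did not pass the test. HSPA8, or HSC70, had 380 and 389 CPM in MET+ and 409 and 403 CPM in MET-KO libraries, a log2 fold change of 0.08 (95% interval -0.10 to 0.26, edgeR adjusted p = 0.464). HSPA5, the ER chaperone BiP, had 672 and 701 CPM against 618 and 583 CPM, a log2 fold change of -0.19 (95% interval -0.38 to -0.01, edgeR adjusted p = 0.0719). The groups did not overlap in either gene, with MET-KO cells above for HSPA8 and below for HSPA5. Changes as large as 2-fold lie outside both intervals. HSPA5 was called lower without the first MET-KO library (log2 fold change -0.24, edgeR adjusted p = 0.0276).

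The stress-inducible HSP70 was read almost only from HSPA1B. It had 63.5 and 59.3 CPM in MET+ and 88.7 and 77.7 CPM in MET-KO libraries, 1.36-fold higher (log2 fold change 0.44, SE 0.11, edgeR adjusted p = 0.000732). HSPA1A, a near-identical neighbour on chromosome 6, had 2 and 0 counts against 2 and 3, and how reads shared by the copies were assigned is not given, so the split between them is uncertain. With both genes summed, the log2 fold change was again 0.44. The elements of the paired genes are shown because the copies resemble each other in the promoter too, with the units in capitals. Both windows are on the plus strand of GRCh38.p14, at chr6:31815426-31815455 for HSPA1A and chr6:31827622-31827651 for HSPA1B.
HSPA1A: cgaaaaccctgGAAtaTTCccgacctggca
HSPA1B: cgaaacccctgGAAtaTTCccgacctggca
The HSPA1L promoter holds the bases shown for HSPA1A on the other strand. HSPA6, which is strictly heat-induced, had 2 and 5 counts in MET+ and 1 and 0 in MET-KO libraries, and HSPA2, HSPA1L and HSPA12B had at most 7 counts in any library.

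HSPA9, or mortalin, the HSP70 of the mitochondrial matrix and motor of protein import, fell. It had 478 and 427 CPM in MET+ and 199 and 197 CPM in MET-KO libraries, 2.29-fold lower (log2 fold change -1.20, SE 0.09, edgeR adjusted p = 4.77e-13). It also lies on chromosome 5, and it stayed below that chromosome by 0.77 on the log2 scale (edgeR adjusted p = 1.28e-08). HSPA13, an HSP70 of the ER, had 23.2 and 20.8 CPM against 29.8 and 28.2 CPM (log2 fold change 0.40, SE 0.14, edgeR adjusted p = 0.0178). That call was lost without the second MET+ library (0.32, edgeR adjusted p = 0.131) and without the first MET-KO library (0.36, edgeR adjusted p = 0.111). HSPA14, which acts at the ribosome with DNAJC2, was split over 2 overlapping IDs. The longer, ENSG00000187522, had 25.7 and 32.1 CPM against 16.5 and 18.6 CPM (log2 fold change -0.72, edgeR adjusted p = 0.00017), while ENSG00000284024 had 26.5 and 22.4 CPM against 27.2 and 31.4 CPM (0.27, edgeR adjusted p = 0.119). These values are uncertain because reads in the overlap could be counted to either ID. HSPA12A, a distant relative, had a log2 fold change of 0.09.

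The 3 HSP90 genes rose by small amounts. HSP90AA1, the inducible cytosolic form, had 1257 and 1247 CPM in MET+ and 1489 and 1568 CPM in MET-KO libraries, 1.22-fold higher (log2 fold change 0.29, SE 0.09, edgeR adjusted p = 0.00939). HSP90AB1, the constitutive form, had 2017 and 2012 CPM against 2393 and 2310.1 CPM (0.22, SE 0.10, edgeR adjusted p = 0.0468). HSP90B1, the ER form GRP94, had 448 and 513 CPM against 605 and 518 CPM (0.22, SE 0.10, edgeR adjusted p = 0.0493), with groups that nearly touch. All 3 calls rested on both libraries of the MET+ group. Without the first or the second MET+ library the adjusted p of HSP90AA1 was 0.0774 or 0.134, that of HSP90AB1 0.201 or 0.278 and that of HSP90B1 0.433 or 0.0523, and HSP90B1 also lost its call without the first MET-KO library (log2 fold change 0.10, edgeR adjusted p = 0.392). HSP90AA1 lies on chromosome 14, where the median was -0.52, and relative to it the gene was higher by 0.80 (edgeR adjusted p = 7.14e-09).

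Together HSP90AA1 and HSP90AB1 took 37.9% of the members' counts in each MET+ library and 40.9% and 41.3% in the MET-KO libraries. All members made up 0.850% and 0.816% of the counts in MET+ and 0.956% and 0.998% in MET-KO libraries. Without HSPB1 the MET-KO shares were 0.914% and 0.959%, still above both MET+ libraries. These are shares of raw library totals. With TMM scaling the members without HSPB1 summed to 8631 and 8595 CPM in MET+ and 9071 and 9018 CPM in MET-KO libraries. HSP90AA1 and HSP90AB1 together rose from 3274 and 3258 CPM to 3882 and 3878 CPM. Without HSPB1 and both of these genes the summed CPM was not higher in MET-KO cells. The promoters of both cytosolic HSP90 genes hold 3 units in a row, with alternating direction, shown in capitals. The windows lie at chr14:102087114-102087143 on the minus strand and chr6:44247767-44247796 on the plus strand of GRCh38.p14.
HSP90AA1: ggggagggttcTTCcgGAAggTTCgggagg
HSP90AB1: aggggagcaggTTCtgGAAgaTTCatgggc
Each belongs to an alternative start, the second of HSP90AA1 and the third of HSP90AB1 in the RefSeq table.

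The mitochondrial chaperonin pair HSPD1 (HSP60) and HSPE1 (HSP10) lie on opposite strands of chromosome 2, with HSPE1 (197499994 to 197503457) inside the annotated span of HSPD1 (197486581 to 197516737). HSPD1 had 626 and 560.3 CPM in MET+ and 538 and 567 CPM in MET-KO libraries, with overlapping groups (log2 fold change -0.10, 95% interval -0.29 to 0.08, edgeR adjusted p = 0.362). HSPE1 had 358 and 309 CPM against 381 and 398 CPM (0.23, SE 0.09, edgeR adjusted p = 0.04). The call of HSPE1 was lost without the second MET+ library (0.11, edgeR adjusted p = 0.519) and without the second MET-KO library (0.20, edgeR adjusted p = 0.0903). HSPE1-MOB4 had no count.

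**Figure D2:**
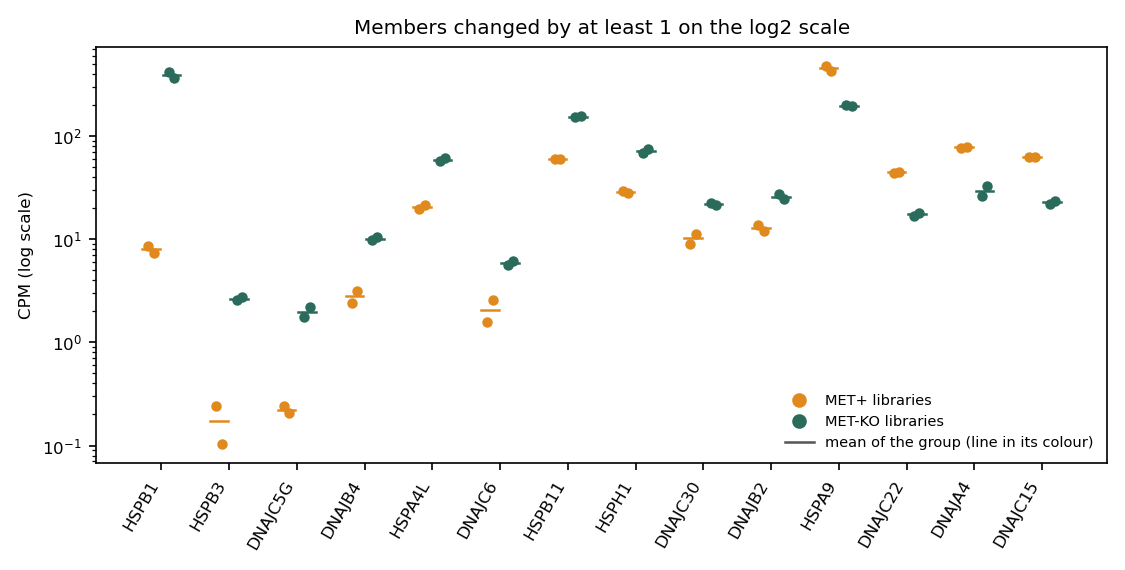
CPM on a log scale in each library for the 14 members called at an adjusted p of 0.05 with a change of at least 2-fold, MET+ libraries in orange and MET-KO libraries in green, with a line at the mean of each group. The libraries of a group lie within 2-fold of each other except for HSPB3 in MET+ cells, and HSPB1 runs from 8.69 and 7.38 to 417 and 366 CPM.

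Of the J-domain genes, DNAJB4, a cytosolic HSP40, showed the largest change among those with more than 3 counts in each library. It had 2.41 and 3.18 CPM in MET+ and 9.79 and 10.5 CPM in MET-KO libraries, 3.59-fold higher (log2 fold change 1.84, SE 0.28, edgeR adjusted p = 1.14e-06). DNAJC6, or auxilin, which strips clathrin from vesicles, had 1.57 and 2.56 CPM against 5.68 and 6.16 CPM (1.49, SE 0.35, edgeR adjusted p = 0.000474). Both are low genes, with no overlap between groups. DNAJB2, a cochaperone that passes clients to the proteasome, had 13.6 and 12.0 CPM against 27.5 and 24.3 CPM (1.02, SE 0.17, edgeR adjusted p = 3.27e-06). DNAJC30, a small mitochondrial protein, had 9.05 and 11.3 CPM against 22.2 and 21.5 CPM (1.10, SE 0.18, edgeR adjusted p = 3.56e-06). It lies on chromosome 7 and was higher by 0.60 relative to it (edgeR adjusted p = 0.00591). DNAJC5G, a relative of the synaptic vesicle protein DNAJC5, had 2 and 2 counts in MET+ and 18 and 24 in MET-KO libraries, a ratio of counts per library total of 9.65 with a counting interval from 3.50 to 37.0.

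Smaller increases were found for further J-domain genes. DNAJA1, a main cytosolic partner of HSC70, had 149 and 134 CPM in MET+ and 217 and 217 CPM in MET-KO libraries, 1.53-fold higher (log2 fold change 0.61, SE 0.09, edgeR adjusted p = 1.1e-06). DNAJB6, which keeps polyglutamine proteins from aggregating, rose by 0.58 on the log2 scale (edgeR adjusted p = 1.28e-05), and DNAJC10, a disulfide reductase of the ER, by 0.41 (edgeR adjusted p = 0.000724). DNAJC2, which sits on the ribosome, rose by 0.37 (edgeR adjusted p = 0.00428), a call that was lost without the second MET-KO library (0.19, edgeR adjusted p = 0.207). DNAJB1, the best known heat-inducible HSP40, had 89.9 and 96.7 CPM in MET+ and 95.5 and 91.6 CPM in MET-KO libraries, with overlapping groups. Its log2 fold change was 0.00 (95% interval -0.20 to 0.20, edgeR adjusted p = 0.984), so changes above 0.20 in either direction lie outside the interval.

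The J-domain genes that fell most belong to different places in the cell. DNAJC15, a protein of the mitochondrial inner membrane known to restrain respiratory complex I, had 62.5 and 62.9 CPM in MET+ and 22.0 and 23.5 CPM in MET-KO libraries, 2.75-fold lower (log2 fold change -1.46, SE 0.12, edgeR adjusted p = 2.62e-12). DNAJA4, a cytosolic HSP40, had 77.0 and 78.6 CPM against 26.3 and 32.6 CPM, 2.63-fold lower (-1.40, SE 0.12, edgeR adjusted p = 4.65e-12). DNAJC22, a membrane protein, had 43.4 and 45.3 CPM against 16.9 and 17.8 CPM, 2.55-fold lower (-1.35, SE 0.13, edgeR adjusted p = 2.19e-10). In each of these genes the MET-KO libraries lay far below the MET+ libraries. DNAJA4 lies on chromosome 15 and DNAJC22 on chromosome 12, with medians of -0.43 and -0.31, and relative to these their log2 fold changes were -0.97 and -1.04. DNAJC9, a histone chaperone, had a log2 fold change of -0.75 (edgeR adjusted p = 5.44e-07), and DNAJC21, which acts in ribosome assembly, one of -0.48 (edgeR adjusted p = 0.000305). Mitochondrial DNAJA3 had -0.34 (edgeR adjusted p = 0.0188) and DNAJC11 had -0.27 (edgeR adjusted p = 0.0431). Both of the latter were lost without the first MET+ library, at -0.16 and -0.18, and also without the first MET-KO library for DNAJA3 (-0.30) and the second for DNAJC11 (-0.18).

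In the ER the J-domain genes were mostly lower or not called. DNAJC3, or p58IPK, a partner of BiP that is induced by the unfolded protein response, had 29.6 and 32.5 CPM in MET+ and 21.2 and 21.3 CPM in MET-KO libraries, 1.46-fold lower (log2 fold change -0.55, SE 0.14, edgeR adjusted p = 0.00144). DNAJB11, another soluble partner of BiP, fell by 0.49 on the log2 scale (edgeR adjusted p = 0.000159), DNAJC1 by 0.44 (edgeR adjusted p = 0.000533) and DNAJB12 by 0.46 (edgeR adjusted p = 0.00535). The call of DNAJB12 was lost without the second MET+ library (edgeR adjusted p = 0.0581) and without the first MET-KO library (edgeR adjusted p = 0.0862). DNAJB9, which is induced by ER stress, had a log2 fold change of 0.14 and DNAJB14 one of -0.39, and neither passed the test. DNAJC10 rose, as given above.

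The other 16 J-domain genes that were tested but not called had log2 fold changes from -0.47 for DNAJC27 to 1.07 for DNAJC28. Among them were DNAJA2 (-0.16), DNAJC7 (-0.21), DNAJC5 (-0.20) and DNAJC19 (0.09), cytosolic, vesicular and mitochondrial proteins of broad use. DNAJC28 had only 9 and 12 counts in MET+ and 18 and 34 in MET-KO libraries. Several members share their position with other genes, among them DNAJB4 with GIPC2 and DNAJC9 with MRPS16 on the same strand, and DNAJC30 with BUD23, DNAJA4 with WDR61 and DNAJC5G with SLC30A3 on the other. How such reads were assigned is not given in the sources used here.

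Heat shock element units found in J-domain promoters are shown for genes that rose (DNAJA1 and DNAJB4), one that did not pass the test (DNAJB1) and genes that fell (DNAJA4 and DNAJC15), with the units in capitals. On GRCh38.p14 the windows lie at chr9:33025265-33025294 (plus strand) for DNAJA1, chr1:78004830-78004859 (plus) for DNAJB4, chr19:14518456-14518485 (minus) for DNAJB1, chr15:78264460-78264489 (plus) for DNAJA4 and chr13:43023386-43023415 (plus) for DNAJC15.
DNAJA1: cgcgccgggcgGAActTTCcaGAAcgctcg
DNAJB4: agcatttgctgTTCtaGAAagtacagagac
DNAJB1: cgggcggggcgGAAggTTCtggagggggct
DNAJA4: ggaacctccgcGAAggTTCtaggcctttgt
DNAJC15: tgtgagtgtgaTTCaaGAAcgtcccagtgc
These genes were picked from those that hold a pair, so the windows do not compare members called higher, lower or not called. The shares by call are given below.

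The regulators in the set changed little or in opposite directions. HSF1, the master factor of the heat shock response, had 22.0 and 23.8 CPM in MET+ and 26.9 and 25.8 CPM in MET-KO libraries, a log2 fold change of 0.20 (95% interval -0.09 to 0.50, edgeR adjusted p = 0.238). HSF2 had 22.9 and 30.9 CPM against 39.2 and 32.9 CPM (0.41, SE 0.14, edgeR adjusted p = 0.0153), a call that was lost without the first MET+ library (0.22, edgeR adjusted p = 0.245) or the first MET-KO library (0.28, edgeR adjusted p = 0.193). HSF1 is controlled mainly as a protein, which these counts do not measure. BAG3, which links HSP70 to small heat shock proteins and to autophagy, had 43.4 and 38.2 CPM against 64.3 and 58.7 CPM, 1.51-fold higher (0.59, SE 0.12, edgeR adjusted p = 4.82e-05). BAG1, which links HSP70 to the proteasome, had 73.3 and 84.3 CPM against 52.8 and 58.9 CPM, 1.41-fold lower (-0.50, SE 0.11, edgeR adjusted p = 0.000223). Both BAG genes had groups that did not overlap.

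Whole chromosomes differed between the groups, so each member was also set against its surroundings. The median log2 fold change of the tested genes of a member's chromosome that were not members was entered into the fit as an offset. With that offset 34 members were called, 54.8% of those tested, against a background of 51.7% of all tested genes. Of the 22 higher members 16 were also called higher with it, and of the 15 lower members 13 were also called lower. HSPE1, HSF2, HSP90AB1, HSPA13 and the chromosome 7 genes DNAJB6 and DNAJC2 were no longer called higher, and HSPA4 and DNAJC21 of chromosome 5 no longer lower. DNAJB6 went from 0.58 to 0.08 (edgeR adjusted p = 0.532), and DNAJC2 from 0.37 to -0.14 (edgeR adjusted p = 0.293). HSPA5, DNAJC5, DNAJC7 and DNAJB14 were newly called lower and DNAJC18 of chromosome 5 newly higher, with HSPA5 at -0.24 (edgeR adjusted p = 0.0235). HSPB1 kept 5.11 of its 5.61.

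With the offset taken from a window of 5 Mb to each side, 36 members were called, 58.1% of those tested, against 52.1% of all tested genes. Of the higher members 17 and of the lower members 13 had the same call. HSPA13 turned from 0.40 to -1.22 (edgeR adjusted p = 1.06e-08), since the 11 tested genes in its window on chromosome 21, members left out, had a median of 1.62. HSP90B1 went to 0.04 (edgeR adjusted p = 0.735) with the window and to 0.54 (edgeR adjusted p = 1.74e-05) with the chromosome, while with the window HSP90AA1 went to 1.05 (edgeR adjusted p = 1.94e-11), where the 71 genes around it had a median of -0.76. With the window HSPA9 went from -1.20 to -0.72, DNAJA4 from -1.40 to -0.92, DNAJC22 from -1.35 to -0.88 and DNAJC30 from 1.10 to 0.67. These genes stayed called, but each with a change below 2-fold. With the window the other members called with a change of at least 2-fold kept one of that size. With the chromosome offset DNAJB2 went from 1.02 to 0.99, just below 2-fold, and stayed called. In these cells, therefore, the size of some changes depended on whether they were read as levels or relative to nearby genes. Besides HSPA9, DNAJA4, DNAJC22 and DNAJC30, this held for HSP90AA1, HSP90B1, HSPA4, HSPA13, DNAJB6, DNAJC2 and DNAJC21, among others. The neighbours DNAJA1 and BAG1 on chromosome 9, at 33025211 to 33039907 and 33247820 to 33264720, moved in opposite directions, and both calls were the same with either offset.

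Heat shock element units were searched in the RefSeq promoters from 250 bases before to 50 bases after each start. A sequence was found for 70 of the 79 symbols, all but DNAJC1, DNAJC22, DNAJC24, DNAJC5B, HSF1, HSPA12B, HSPA14, HSPB2 and HSPB2-C11orf52. The letters searched were GAANNTTC and TTCNNGAA, each of which reads the same on both strands, and a gene with several starts was counted once. At least 1 pair was present in 22 of 70 members, or 31.4%, against 13.4% of the 9908 tested genes with a promoter and 16.2% of all 27305 genes in the table. The pair was found in 10 of 22 members called higher, 3 of 12 called lower, 3 of 22 not called and 6 of 14 not tested. The members called higher include HSPB3, which holds a pair, and DNAJC5G, which holds none. Both reached the count filter through the MET-KO libraries alone. A run of 3 units was present in 7 members, 10.0%, against 0.464% of the tested genes with a promoter and 0.608% of all genes in the table. Members with a run were 4 of 22 called higher, 0 of 12 called lower, 2 of 22 not called and 1 of 14 not tested. The 7 were DNAJA1, DNAJB6, HSP90AA1 and HSP90AB1, which were called higher, HSPA8 and HSPD1, which were not called, and HSPA6, which was not tested.

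Pairs were found on both sides of the call, as the constitutive HSPA8, the mitochondrial HSPA9 and HSPA4L show. HSPA8, not called, holds a run of 3 units, and HSPA9, called lower, holds a pair across its start. On GRCh38.p14 these windows are at chr11:123062173-123062202 and chr5:138575387-138575416, both on the minus strand, and HSPA4L, called higher, is at chr4:127782141-127782170 on the plus strand.
HSPA8: gggcgggccccTTCtgGAAggTTCtaagat
HSPA9: tggttggaggtTTCcaGAAgcgctgccgcc
HSPA4L: tttccagatctTTCtcGAAcccgcagcttc
A match is a stretch of letters and not evidence that HSF1 was bound, and promoters of BAG3, HSPH1 and DNAJB2, all called higher, held no pair in this stretch.

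Genes that work with the members were followed in lists written from general knowledge. Their counts stand against 54.1% of all tested genes called, 27.2% higher and 26.9% lower. The list of HSP90 cochaperones also held TRAP1, which is itself the mitochondrial HSP90. Of its 15 tested genes 3 were higher and 7 lower, with a median log2 fold change of -0.07. TRAP1 was the highest at 0.55 (edgeR adjusted p = 8.86e-06), followed by the cochaperone CHORDC1 at 0.43 (edgeR adjusted p = 0.00376). AHSA1, which stimulates the HSP90 ATPase, was the lowest at -0.81 (edgeR adjusted p = 3.34e-08). AHSA1 lies on chromosome 14, where the median was -0.52. PTGES3 (-0.50) and FKBP4 (-0.52), also called lower, lie on chromosome 12 (median -0.31), and UNC45A (-0.28) on chromosome 15 (median -0.43). The others called lower, CDC37, CDC37L1 and SUGT1, lie on chromosomes with medians from 0.01 to 0.09. Among 10 nucleotide exchange factors and other HSP70 partners, 2 rose and 4 fell (median log2 fold change -0.17). Those called ran from BAG2 at 0.39 (edgeR adjusted p = 0.00369) to GRPEL2, an exchange factor of HSPA9 in mitochondria, at -1.45 (edgeR adjusted p = 1.79e-13). GRPEL1, the other mitochondrial exchange factor of the list, was not called (-0.01, edgeR adjusted p = 0.949). Among 15 genes of the cytosolic chaperonin TRiC and of prefoldin, 2 rose and 4 fell (median -0.08), with PFDN1 lowest at -0.72 (edgeR adjusted p = 5.63e-07). The highest, CCT6B, had 5 and 4 counts in MET+ and 24 and 25 in MET-KO libraries and reached the count filter through the MET-KO libraries alone. Both GRPEL2 and PFDN1 lie on chromosome 5, where the median was -0.43. The other TRiC and prefoldin genes called lower were CCT5 (-0.59), also on chromosome 5, and CCT2 (-0.33) and PFDN5 (-0.55). CCT2 and PFDN5 lie on chromosome 12, where the median was -0.31. Calls relative to the chromosome are not given for the genes of the lists.

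Among 17 genes of ER folding and the unfolded protein response, 4 rose and 9 fell (median log2 fold change -0.27). CALR, a lectin chaperone, was highest at 0.89 (edgeR adjusted p = 1.57e-09), and DDIT3, the stress factor CHOP, lowest at -1.26 (edgeR adjusted p = 2.22e-10). DDIT3 lies on chromosome 12, where the median was -0.31. Among 7 tested genes of mitochondrial import and quality control, 0 rose and 4 fell (median -0.29). Those called ran from the protease subunit CLPP at -0.29 (edgeR adjusted p = 0.022) to TIMM44, which tethers HSPA9 to the import channel, at -0.91 (edgeR adjusted p = 5.77e-07). Of the other heat shock factors and their regulators, HSBP1L1 (0.67, edgeR adjusted p = 2.34e-05) and HSBP1 (0.28, edgeR adjusted p = 0.0127) were tested and both were higher. None of the lists was compared with other genes by a set test.

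Of the 18 members that were not tested, 7 had no count in any library and the others had at most 7 counts. Besides those named, DNAJB13, DNAJC12 and DNAJC5B had a count, with DNAJC12 at 4 and 4 in MET+ and 1 and 1 in MET-KO libraries, and DNAJB7, DNAJB8 and DNAJC25-GNG10 had none. Rows of pseudogenes named after members held few counts, at most 22 in a library for the 26 of HSPE1.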

How the data were processed

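The authors deposited raw read counts per gene for QuantSeq 3′ libraries, which read 1 end of each transcript, and per the labels' processing notes used bcl2fastq, cutadapt 1.16, STAR 2.5.4a and featureCounts 1.6.2 on GRCh38; the annotation release and strand setting are not given in the sources used here. Of 58825 gene rows 58552 were found in GENCODE 29, and 99 spike-in rows held 0 counts. Members and lists were chosen with earlier results of these data known. In R 4.3.3, edgeR 4.0.16 tested 13801 genes (filterByExpr, TMM, quasi-likelihood test, group as the only term, Benjamini-Hochberg, 0.05), and this fit was tested on simulated data. Counting intervals are 95% and cover counting error only. With 2 libraries a group, a permutation test cannot go below p = 0.333. Values in every library were given for members changed at least 2-fold and for a list of well-known members. HSPA4, HSPA13 and HSPA14 were added after their values were seen. Of each other list the highest and lowest called genes were named, with GRPEL1 and CHORDC1 added in the same way. Alternatives were DESeq2 1.42.0 (size factors and Wald test), library totals, other count filters, a replicate block, thinning, a 2-fold minimum, leaving out each library, offsets for chromosome or window, and HSPA1A and HSPA1B summed.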

Additional observations from a re-analysis of the deposited data

How the results depend on the processing

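Of the 37 calls, 24 (14 higher and 10 lower) held under each of 14 alternatives in which the gene was tested; HSPB3 and DNAJC5G had too few counts for the minimum of 10 in each library. A 2-fold minimum left 14 members, 10 higher and 4 lower, of 3355 genes. Leaving out 1 library gave 33 to 35 calls, 18 to 20 higher and 14 to 16 lower, 6289 to 7083 over all genes and -1.99 to -1.92 for MET. DESeq2's Wald test called 31 members, without DNAJA3, DNAJC11, HSF2, HSP90B1, HSPA13 and HSPE1. Scaling by library totals raised the median of all genes to 0.11 and gave 24 higher and 13 lower. The numbers do not pair the libraries (correlation of same-numbered deviations -0.0509); the replicate block gave 33 calls, without DNAJC11, HSP90AB1, HSP90B1 and HSPE1, and 7055 over all genes. Log2 fold changes that changed sign were -0.0035 (chromosome offset) and -0.0017 (no filter) for DNAJB1; with the chromosome offset DNAJB9 -0.37, DNAJC17 0.24, DNAJC19 -0.052 and DNAJC2 -0.14; and with the window offset DNAJA2 0.011, DNAJB9 -0.21, DNAJC14 0.050, DNAJC17 0.13, DNAJC19 -0.12, DNAJC2 -0.19, HSPA13 -1.22 and HSPA8 -0.0082. With 1 library left out, values ran from -0.046 to 0.050 for DNAJB1, -0.13 to 0.39 for DNAJC16, -0.035 to 0.093 for DNAJC18, -0.017 to 0.20 for DNAJC19, -0.30 to 0.027 for DNAJC25 and -0.083 to 0.30 for HSPA12A. Of these sign changes, HSPA13 alone was called in both directions. The window median of HSPA13, 1.62, exceeded its log2 fold change of 0.40. Why the medians of chromosomes and windows differed between the groups was not tested.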
